A study of Homo sapiens with 6 samples.

Results

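The 10 genes described here encode receptors, ligands and targets of the Notch pathway: NOTCH1, NOTCH2, NOTCH3, JAG1, JAG2, DLL1, HES1, HES4, HEY1 and NRARP. They were chosen by name, by matching the Ensembl identifiers of the deposited table to these symbols, and all 10 were found, each once, among 60960 features. Expression was measured by bulk RNA sequencing of poly(A)-selected RNA from NCI-H1975, a human line of non-small cell lung cancer with mutant EGFR. One group of libraries carries the label siGFPT2 (n = 3), for cells given a small interfering RNA against GFPT2, which makes glucosamine-6-phosphate for the hexosamine pathway. The other carries the label siNC (n = 3), for the control small interfering RNA. The labels give neither the sequences nor the dose or duration of the small interfering RNAs, and the extraction text shared by all 6 libraries also names almonertinib, EGF and knockdown of EGFR. No label says that replicates came from separate cultures, so p-values measure the spread between these libraries, which may be technical.

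Notch receptors are single-pass membrane proteins that are switched on by ligands of the Jagged and Delta-like families on a neighbouring cell. Binding lets ADAM proteases and then gamma-secretase cut the receptor, and the freed intracellular domain joins the DNA-binding protein RBPJ and Mastermind coactivators to turn on genes such as HES1, HEY1 and NRARP. The extracellular EGF repeats carry O-linked fucose, glucose and N-acetylglucosamine, and the last of these sugars, like the N-acetylglucosamine that Fringe enzymes add, comes from UDP-GlcNAc, the product of the hexosamine pathway. In the airway, Notch signalling is known for steering progenitors towards secretory and away from ciliated or neuroendocrine fates.

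Depth, read from the steps of the deposited values, lay between 22198121 and 27234880 counted fragments in siGFPT2 and between 21899321 and 24493042 in siNC. The target gene GFPT2 was measured at 8.94, 7.58 and 8.72 FPKM (fragments scaled to gene length and to the counted total of the library) in siGFPT2 replicates 1, 2 and 3, against 10.1, 9.30 and 8.28 FPKM in siNC replicates 1, 2 and 3. The groups overlapped, and the log2 fold change of -0.13 ± 0.13 (SE) passed neither limma (adjusted p = 0.9999) nor an exact two-sided permutation test (p = 0.4, where 0.1 is the smallest that 3 against 3 libraries allow). Below, siGFPT2 therefore means the libraries with that label. Epithelial markers were high in both groups, with 7 of 8 above a mean of 1 FPKM and KRT19 highest, at 443 to 590 FPKM in siGFPT2 and 448 to 677 FPKM in siNC, while NAPSA, an alveolar protease, stayed under 1 FPKM. Of the endothelial markers 0 of 6 reached that mean, with a summed level of 0.673 to 1.00 FPKM in siGFPT2 and 0.678 to 0.848 in siNC, and KDR was the highest of them. Of 7 fibroblast and mural markers 2 reached it (COL1A1, the highest, and COL1A2), with a sum of 10.5 to 14.5 FPKM in siGFPT2 and 10.6 to 12.2 in siNC. Of 7 neuroendocrine markers 1 reached it, SYP, while GRP and NEUROD1 were listed at 0. SYP was measured at 0.779, 1.07 and 1.09 FPKM in siGFPT2, against 1.17, 1.47 and 1.56 in siNC, groups that did not overlap (limma adjusted p = 0.9999). Of all features tested, 1.36% had groups that did not overlap in this direction. The neuroendocrine list summed to 1.28 to 2.05 FPKM in siGFPT2 and 2.13 to 2.53 in siNC. The part of these markers in any result below was not tested. In bulk RNA, fewer cells that express a gene and less of its RNA per cell cannot be told apart. Libraries siGFPT2 replicate 2 and siNC replicate 3 stood apart from the other 4, and their values are named with each gene. Over the features tested, the deviations of these libraries from their own group means correlated at 0.792, while those of the other pairs of a siGFPT2 and a siNC library lay between -0.719 and 0.564. Since GFPT2 did not separate the groups either, its level gives no check of what each library received, and this limit holds for every comparison of siGFPT2 with siNC below.

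All 3 receptors were present at moderate levels, and each was lowest in siNC replicate 3 and siGFPT2 replicate 2. NOTCH3 (ENSG00000074181, chromosome 19, 15159038 to 15200981, minus strand, GENCODE 29 on GRCh38), a receptor best known from vascular smooth muscle and also present in lung tumours, was the most abundant. It was measured at 11.8, 6.63 and 11.7 FPKM in siGFPT2 replicates 1, 2 and 3, against 15.1, 13.2 and 5.59 FPKM in siNC replicates 1, 2 and 3, from 1287 to 3147 fragments per library. The lowest values were those of siNC replicate 3 and siGFPT2 replicate 2, so each group held 1 low library and the groups overlapped. NOTCH2 (ENSG00000134250, chromosome 1, 119911553 to 120069626, minus strand), a broadly expressed receptor, was measured at 8.20, 3.83 and 7.85 FPKM in siGFPT2, against 9.37, 9.61 and 2.89 FPKM in siNC. The same pair of libraries was low again, and the highest library held 3.33 times the level of the lowest, the widest range among the 10 genes. NOTCH1 (ENSG00000148400, chromosome 9, 136494433 to 136545786, minus strand), the receptor best known for its activating mutations in T-cell leukaemia, was measured at 6.36, 4.01 and 6.02 FPKM in siGFPT2, against 8.56, 7.02 and 3.17 FPKM in siNC. It showed the same order, with the 2 low libraries at 3.17 and 4.01 FPKM and the other 4 between 6.02 and 8.56 FPKM.

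The fourth receptor of the family, NOTCH4, known chiefly from endothelium, was close to absent, at 0.0739 to 0.132 FPKM in siGFPT2 and 0.0890 to 0.126 FPKM in siNC. The level of NOTCH2 is uncertain, because the NOTCH2NL genes are near-identical copies of its first exons and fragments could be assigned to either. How fragments that match both were counted is not given in the sources used here, so the size of this uncertainty is not known. The copies NOTCH2NLA, NOTCH2NLB, NOTCH2NLC and NOTCH2NLR were listed at no more than 0.0989 FPKM in siGFPT2 and 0.0769 FPKM in siNC. The receptors kept a similar balance in every library. NOTCH3 made up 44.8%, 45.8% and 45.7% of the summed FPKM of NOTCH1, NOTCH2 and NOTCH3 in siGFPT2 replicates 1, 2 and 3, against 45.8%, 44.2% and 48.0% in siNC replicates 1, 2 and 3. NOTCH2 made up 31.1%, 26.5% and 30.8% in siGFPT2, against 28.4%, 32.2% and 24.8% in siNC, and was thus lowest in the pair that stood apart.

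The Jagged ligands were as abundant as the receptors. Of the Delta-like ligands, DLL1 and DLL4 were almost absent and DLL3 was low, with a mean of 0.788 FPKM over all libraries. JAG2 (ENSG00000184916, chromosome 14, 105140981 to 105168824, minus strand) was the most abundant ligand. It was measured at 8.88, 8.97 and 9.16 FPKM in siGFPT2, against 11.02, 9.19 and 8.56 FPKM in siNC. These values lay close together, with siNC replicate 1 highest, and neither of the libraries that stood apart was separated from the rest. JAG1 (ENSG00000101384, chromosome 20, 10637684 to 10673999, minus strand), a ligand that is often studied in epithelial tumours, was measured at 6.50, 3.90 and 6.42 FPKM in siGFPT2, against 7.24, 6.90 and 3.25 FPKM in siNC. It had the pattern of the receptors, low in siGFPT2 replicate 2 and siNC replicate 3 and high in the other 4 libraries. The ratio of JAG1 to JAG2 was 0.732, 0.435 and 0.701 in siGFPT2, against 0.657, 0.751 and 0.380 in siNC, so the balance of the ligands varied more between libraries of 1 group than between groups. An antisense gene of GENCODE 29 overlaps an exon of JAG1 and a noncoding transcript overlaps JAG2, with mean levels of 0.01 and 0.0 FPKM in the deposited table. Whether the libraries keep strand is not given in the sources used here.

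DLL1 (ENSG00000198719, chromosome 6, 170282206 to 170306565, minus strand), the Delta-like ligand among the members, rested on 4, 5 and 7 fragments in siGFPT2 replicates 1, 2 and 3, against 10, 7 and 8 fragments in siNC replicates 1, 2 and 3. The levels were 0.0461, 0.0481 and 0.0826 FPKM in siGFPT2, against 0.118, 0.0837 and 0.0855 FPKM in siNC. The groups did not overlap in FPKM, but 2 libraries held the same 7 fragments on either side of the division. Of the features tested, a set without DLL1, 1.36% had groups that did not overlap with siGFPT2 lower. No such share was taken among features as low as DLL1. DLL1 lay below the mean of 1 FPKM needed for the main test. Fitted with no filter on low values its log2 fold change was -0.30 (95% interval -0.77 to 0.16, limma adjusted p = 1.0), and the exact permutation test gave p = 0.1, the smallest it can give. DLL3, a Delta-like ligand that acts inside the cell and is known from neuroendocrine tumours, stood at 0.858, 1.05 and 0.706 FPKM in siGFPT2, against 0.725, 0.576 and 0.811 FPKM in siNC. DLL4, the ligand of sprouting vessels, was at 0.0370 to 0.0758 FPKM in siGFPT2 and at 0.0344 to 0.133 FPKM in siNC.

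**Figure D1:**
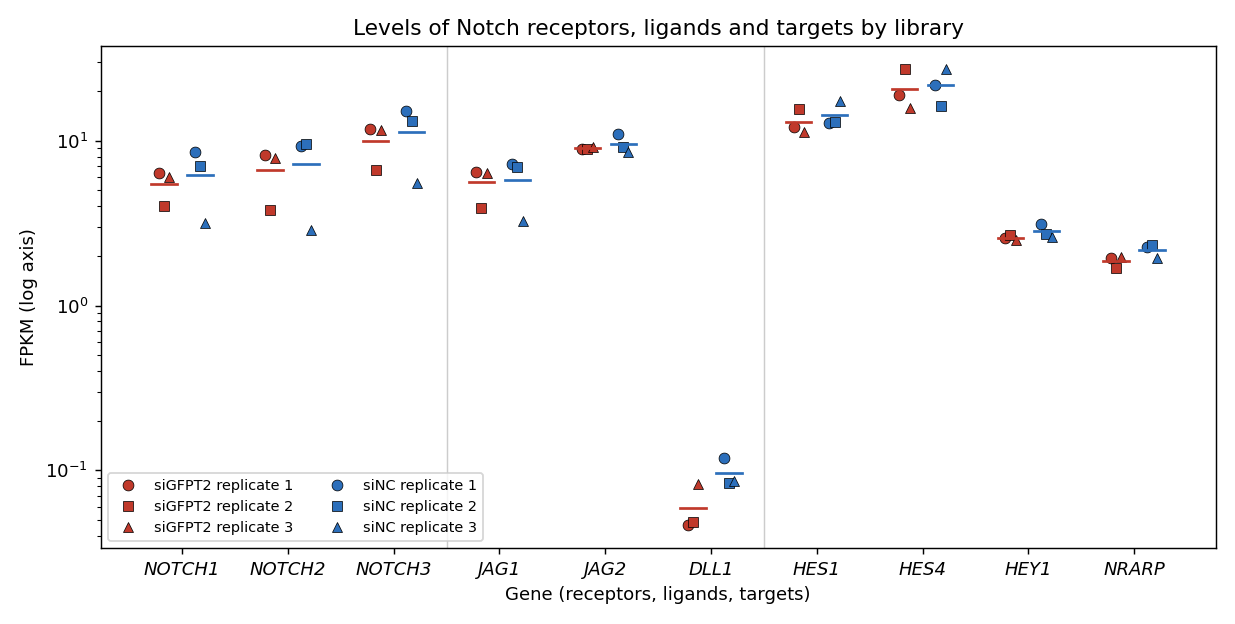
Levels of the 10 genes in FPKM (log axis), with 1 point for each library and a bar at the group mean; in each pair siGFPT2 stands left in red and siNC right in blue, and the marker gives the replicate. The receptors and JAG1 are low in siGFPT2 replicate 2 and siNC replicate 3, where NOTCH2 was 3.83 and 2.89 FPKM, and HES1 and HES4 are highest in the same libraries.

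HES1 and HES4 had the highest mean levels of the 10 genes, although HES1 overlapped with NOTCH3 in range and was above it in only 3 of 6 libraries. Both HES genes were highest in siGFPT2 replicate 2 and siNC replicate 3, where the receptors were lowest. HES4 (ENSG00000188290, chromosome 1, 998962 to 1000172, minus strand), a transcriptional repressor of the HES family that is present in humans and missing in mice, was the most abundant of the 10 genes. It was measured at 19.0, 27.5 and 15.8 FPKM in siGFPT2 replicates 1, 2 and 3, against 21.8, 16.3 and 27.4 FPKM in siNC replicates 1, 2 and 3. The libraries that stood apart held the 2 highest values, 1 in each group. HES1 (ENSG00000114315, chromosome 3, 194136145 to 194138732, plus strand), the best known direct Notch target and a repressor of proneural genes, was measured at 12.1, 15.6 and 11.3 FPKM in siGFPT2, against 12.9, 13.0 and 17.4 FPKM in siNC. Again siGFPT2 replicate 2 and siNC replicate 3 were highest, and the other 4 libraries lay between 11.3 and 13.0 FPKM.

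The promoters of HES1 and HES4 were picked for display because both genes were high in the same libraries and because the core motif of RBPJ, TGGGAA, occurs in both. The shared motif is thus part of the choice and not a separate result. Its part in the levels of these genes was not tested. The 250 bases before the RefSeq gene start (GRCh38.p14) are given 5′ to 3′ in the direction of transcription, with TGGGAA in capitals.
HES1 (chr3:194135898-194136147, plus strand): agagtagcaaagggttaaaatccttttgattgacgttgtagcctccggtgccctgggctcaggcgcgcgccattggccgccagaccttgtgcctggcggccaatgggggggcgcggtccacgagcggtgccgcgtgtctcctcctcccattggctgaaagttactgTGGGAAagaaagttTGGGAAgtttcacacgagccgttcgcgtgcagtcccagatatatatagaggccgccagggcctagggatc
HES4 (chr1:1000098-1000347, minus strand): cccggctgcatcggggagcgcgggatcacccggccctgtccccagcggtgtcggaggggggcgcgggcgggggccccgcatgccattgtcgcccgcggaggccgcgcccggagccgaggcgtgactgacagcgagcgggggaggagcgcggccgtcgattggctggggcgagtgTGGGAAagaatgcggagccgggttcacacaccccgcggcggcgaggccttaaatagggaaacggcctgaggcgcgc
HES1 holds 2 matches on its own strand, whose first bases lie 84 and 70 bases before the start, and HES4 holds 1, at 76 bases. The longest run that the promoters share is TGTGGGAAAGAA, of 12 bases, which begins 86 bases before the start of HES1 and 78 before that of HES4 and includes the motif. On the strand shown it occurs in 5 of 35116 RefSeq promoter windows of the same length (0.0142%), those of HES1 and HES4 included. The run was picked from these sequences, so this share only describes it. The longest run shared by other pairs of promoters was not sought. TGGGAA, counted on both strands, was found in 20.85% of these windows, and 2.90% held it at least 2 times. A window was found for 8 of the 10 genes, all but DLL1 and HEY1. The windows of NOTCH1, NOTCH2, NOTCH3, JAG1, JAG2 and NRARP do not hold these letters. The N box CACNAG, bound by HES repressors, was searched on both strands and has 3 matches in the HES1 window, a gene known to repress itself, and 1 in that of NOTCH3, against 32.04% of all windows with at least 1.

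HEY1 and NRARP were lower and varied little. HEY1 (ENSG00000164683, chromosome 8, 79764010 to 79767863, minus strand), a repressor related to the HES proteins, was measured at 2.58, 2.67 and 2.51 FPKM in siGFPT2, against 3.12, 2.72 and 2.62 FPKM in siNC. Only siNC replicate 1 lay apart, on the high side, and the libraries that were low for the receptors lay among the others. NRARP (ENSG00000198435, chromosome 9, 137300482 to 137302251, minus strand), an ankyrin repeat protein that is induced by Notch and dampens it by binding the RBPJ complex, was measured at 1.95, 1.70 and 1.98 FPKM in siGFPT2, against 2.28, 2.32 and 1.93 FPKM in siNC. It rested on 116 to 134 fragments per library. The groups overlapped only through siNC replicate 3, which lay below siGFPT2 replicates 1 and 3. Of the other HES and HEY genes, HES6 (1.82 to 2.99 FPKM in siGFPT2, 2.06 to 3.20 in siNC), known as an antagonist of HES1, and HEYL (1.13 to 1.45 in siGFPT2, 1.08 to 1.41 in siNC) reached a mean of 1 FPKM, and HES2, HES3, HES5, HES7 and HEY2 did not. HES5, a Notch target of neural progenitors, was at 0, 0.0277 and 0 FPKM in siGFPT2, against 0.0683, 0.0345 and 0.0925 FPKM in siNC, on few fragments.

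Ordered by mean FPKM over the 6 libraries, a scale per gene length, the genes ran from HES4 (21.3) through HES1 (13.7), NOTCH3 (10.7), JAG2 (9.30), NOTCH2 (6.96), NOTCH1 (5.86), JAG1 (5.70), HEY1 (2.70) and NRARP (2.02) to DLL1 (0.0774). The ranges of neighbours over the libraries overlapped down to JAG1. Within libraries HES4 was above HES1 in 6 of 6, at 1.39 to 1.76 times its level in siGFPT2 and 1.26 to 1.69 times in siNC. JAG2 was above NOTCH2 in 5 of 6, NOTCH3 above JAG2 and NOTCH2 above NOTCH1 in 4 of 6, and HES1 above NOTCH3 and NOTCH1 above JAG1 in 3 of 6. The ranges of JAG1, HEY1 and NRARP did not overlap with those of their neighbours below. The summed FPKM of the 3 receptors divided by that of the 4 targets was 0.740, 0.305 and 0.809 in siGFPT2 replicates 1, 2 and 3, against 0.824, 0.869 and 0.236 in siNC replicates 1, 2 and 3. The ratio thus differed more within each group than between the groups.

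Of the 5 genes that were low in both siGFPT2 replicate 2 and siNC replicate 3, NOTCH1, NOTCH2, NOTCH3 and JAG1 are the longest members and NRARP is a short one. For NRARP the margin was narrow, at 1.93 FPKM in siNC replicate 3 (125 fragments) against 1.95 in siGFPT2 replicate 1 (117 fragments). The gene lengths behind the FPKM values, recovered from their steps, were 19930 bases for NOTCH2, 12531 for NOTCH1, 9408 for NOTCH3 and 9298 for JAG1, against 6396 for JAG2, 5487 for HEY1, 2641 for NRARP, 2059 for HES1 and 1118 for HES4. These lengths can exceed those of single mRNAs. The longest mRNA of GENCODE 29 has 5940 bases for JAG1 and 5835 for JAG2, nearly the same, and 2296 for HEY1. Over all 12896 features tested, the slope of a library's log2 deviation on log2 gene length was 0.0273, -0.0555 and 0.0271 in siGFPT2 replicates 1, 2 and 3, against 0.0345, 0.0479 and -0.0814 in siNC replicates 1, 2 and 3. Both negative slopes belong to the libraries that stood apart. Features over 8 kb had a median deviation of -0.198 in siGFPT2 replicate 2 and -0.328 in siNC replicate 3 on the log2 scale, and those of 1 to 2 kb had 0.193 and 0.286.

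Compared with these medians the receptors deviated further. NOTCH2 deviated by -0.71 in siGFPT2 replicate 2 and by -1.11 in siNC replicate 3, and NOTCH3 by -0.59 and -0.83 in the same libraries. NOTCH1 deviated by -0.46 and -0.79, and JAG1 by -0.47 and -0.73. In siNC replicate 3 NOTCH1, NOTCH2 and NOTCH3 lay below the 10th percentile of features over 8 kb (-0.752), and JAG1 lay just above it. In siGFPT2 replicate 2, where this percentile was -0.485, NOTCH2 and NOTCH3 lay below it and NOTCH1 and JAG1 just above. HES4, the shortest, deviated by 0.40 in both libraries, and HES1 by 0.20 in siGFPT2 replicate 2 and 0.36 in siNC replicate 3. NRARP lay below the medians of its length class, with -0.23 and -0.06, where features of 2 to 4 kb had medians of 0.086 and 0.111. The 10th percentiles of that class were -0.142 in siGFPT2 replicate 2 and -0.251 in siNC replicate 3. NRARP was thus below this percentile in siGFPT2 replicate 2 only. Of the 9 members tested, 5 were lower in both of these libraries than in each of the other 4 (NOTCH1, NOTCH2, NOTCH3, JAG1 and NRARP) and 2 were higher in both (HES1 and HES4). The same held for 35.4% and 29.8% of all features tested and for 70.2% and 8.41% of those over 8 kb. Among features of 1 to 2 kb, the class of HES4, 62.2% were higher in both. Among those of 2 to 4 kb, the class of HES1 and NRARP, 45.3% were higher in both and 14.2% lower in both. The part of gene length in these differences was not tested.

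**Figure D2:**
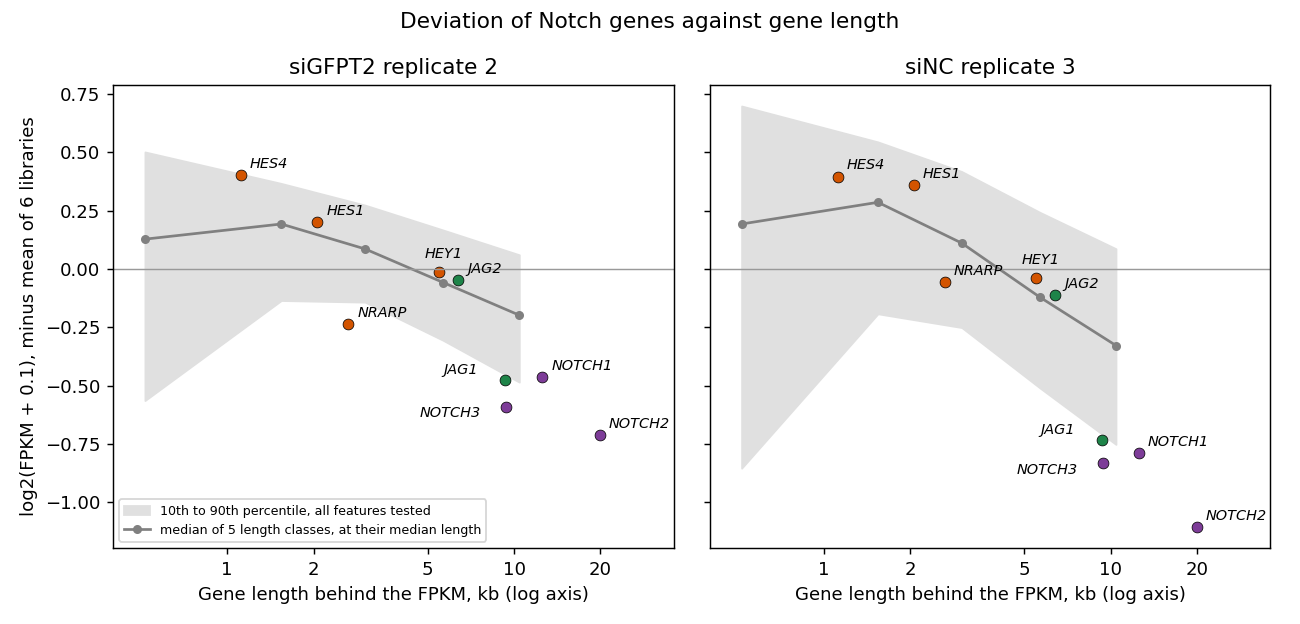
Deviation of log2(FPKM + 0.1) from the mean of 6 libraries against the gene length behind the FPKM (kb, log axis) in siGFPT2 replicate 2 (left) and siNC replicate 3 (right); coloured points are members, the grey line joins the medians of 5 length classes of all features tested and the band spans their 10th to 90th percentiles. NOTCH2, the longest, lies lowest, at -0.71 and -1.11, and HES4, the shortest, is at 0.40 in both panels.

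The comparison of the groups asked whether the Notch genes differ between siGFPT2 and siNC, and with all 6 libraries none of the 9 members tested passed. The log2 fold changes, siGFPT2 over siNC on the log2(FPKM + 0.1) scale, lay between -0.20 and 0.001, with 8 of 9 below 0 and a median of -0.10, while 38.6% of all 12896 features tested were below 0 and their median was 0.03. Limma called 0 of the 9 at an adjusted p under 0.05, as it called 0 of all features (0.0%). At an unadjusted p under 0.05 it had 0 of the 9, against 84 of all features (0.651%), and limma-voom on recovered reads called 0 of all features with 60 at an unadjusted p under 0.05. The groups overlapped for all 9 members tested. Of all features 3.53% had groups that did not overlap, 1.36% with siGFPT2 lower and 2.16% with siGFPT2 higher.

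The targets had narrower intervals than the receptors. NRARP averaged 1.88 ± 0.156 FPKM in siGFPT2 and 2.18 ± 0.211 in siNC (SD, n = 3 each), and its log2 fold change was -0.20 (95% interval -0.55 to 0.14; limma adjusted p = 0.9999, as for each member tested). HES1 averaged 13.0 ± 2.28 FPKM in siGFPT2 and 14.4 ± 2.60 in siNC (-0.15, -0.57 to 0.28). HEY1 averaged 2.59 ± 0.0794 FPKM in siGFPT2 and 2.82 ± 0.262 in siNC (-0.12, -0.42 to 0.18), and the interval leaves room for a change between -25.1% and 13.6%. HES4 averaged 20.7 ± 6.04 FPKM in siGFPT2 and 21.8 ± 5.53 in siNC (-0.08, -0.70 to 0.54). For these 4 targets each interval includes 0 and excludes a change of 2-fold in either direction.

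The receptors had wider intervals, with 1 low library in each group. NOTCH2 averaged 6.63 ± 2.43 FPKM in siGFPT2 and 7.29 ± 3.81 in siNC (-0.03, -1.26 to 1.20). NOTCH1 averaged 5.46 ± 1.27 FPKM in siGFPT2 and 6.25 ± 2.77 in siNC (-0.10, -1.005 to 0.80). NOTCH3 averaged 10.02 ± 2.94 FPKM in siGFPT2 and 11.3 ± 5.04 in siNC (-0.10, -1.07 to 0.88). For all 3 receptors this fit did not exclude a 2-fold decrease, and for NOTCH2 it did not exclude a 2-fold increase. The ligand JAG1 averaged 5.61 ± 1.48 FPKM in siGFPT2 and 5.80 ± 2.21 in siNC (0.001, -0.83 to 0.83), and JAG2 averaged 9.0 ± 0.142 in siGFPT2 and 9.59 ± 1.28 in siNC (-0.08, -0.38 to 0.21). The exact permutation test gave p between 0.2 (HEY1) and 1.0 (NOTCH2 and JAG1) for these 9 genes.

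Without siGFPT2 replicate 2 and siNC replicate 3, 9 of 9 members had log2 fold changes below 0, from -0.32 for NOTCH1 to -0.12 for HES4, with a median of -0.19 against 0.03 over all features, of which 43.0% were below 0. These values have 2 libraries a group. In these 4 libraries both siGFPT2 values lay below both siNC values for 8 of the 9 (all but HES4), and the same held for 18.0% of all features, with 23.9% in the opposite direction. By limma, the log2 fold changes and intervals were -0.32 (-0.61 to -0.03) for NOTCH1, -0.24 (-0.44 to -0.04) for NOTCH2 and -0.27 (-0.50 to -0.04) for NOTCH3. Limma's unadjusted p was 0.0344, 0.0276 and 0.0299 for these genes. These 3 were the members at an unadjusted p under 0.05, a level reached in this direction by 1.84% of all features and in the opposite one by 3.99%, and the adjusted p was 0.720 for each, so none passed. Limma called 0 of all features in this fit. In the pair left out the receptors ran the other way, with NOTCH1, NOTCH2, NOTCH3 and JAG1 higher in siGFPT2 replicate 2 than in siNC replicate 3. Among features over 8 kb, 25.2% had both siGFPT2 values below both siNC values in the 4 libraries, and the length slopes of these libraries were 0.0273 and 0.0271 in siGFPT2 and 0.0345 and 0.0479 in siNC. How far this slope carries the lower receptor values was not tested.

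With the length slope of each library as a covariate, the intervals of the receptors narrowed and their fold changes stayed near 0. NOTCH2 had a log2 fold change of -0.02 (-0.18 to 0.14), NOTCH3 -0.09 (-0.31 to 0.14) and NOTCH1 -0.10 (-0.39 to 0.19). HES1 had -0.15 (-0.29 to -0.005, unadjusted p = 0.0443) and NRARP -0.20 (-0.40 to -0.004, unadjusted p = 0.0463) by limma, with an adjusted p of 0.695 for both, so neither passed. An unadjusted p under 0.05 with a lower level in siGFPT2 was found for 1.74% of all features in this fit, and in either direction for 5.46%.

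**Figure D3:**
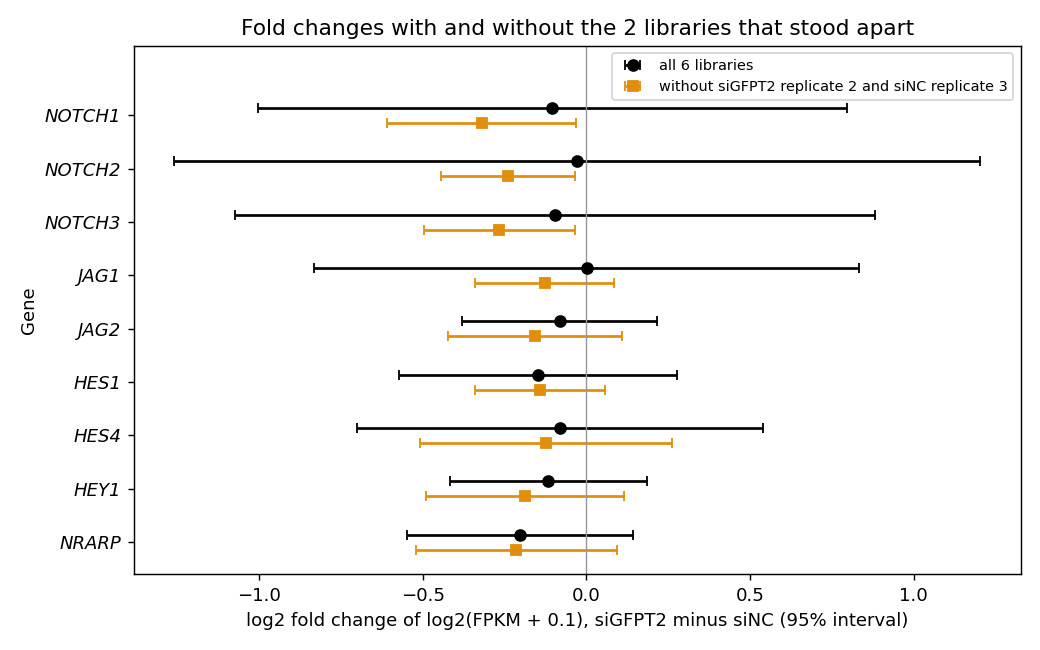
Log2 fold changes of the 9 members tested, siGFPT2 minus siNC on log2(FPKM + 0.1), with 95% intervals of limma; black points use all 6 libraries and orange squares leave out siGFPT2 replicate 2 and siNC replicate 3. All black intervals include 0, and the orange intervals of NOTCH1, NOTCH2 and NOTCH3 lie below 0 at unadjusted p, with an adjusted p of 0.720.

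Other genes of the pathway held no called gene either, and their fold changes lay on both sides of 0. Over the lists of ligands, targets, sugar transferases, proteases, nuclear factors and regulators, 70 further genes were tested, of which limma called 0, with 42 above 0, 28 below 0 and a median of 0.02. At an unadjusted p under 0.05 there were 0. In the 4 libraries without the pair that stood apart, 26 of the 70 had both siGFPT2 values below both siNC values, against 18.0% of all features, and 11 had both above, against 23.9%. Among features over 8 kb these shares were 25.2% and 16.1%, and the 70 genes were not matched to other features by length. The members and the rest of the pathway were not tested against each other.

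The 11 sugar transferases of the EGF repeats, which use fucose, glucose, xylose, galactose or UDP-GlcNAc, had a median log2 fold change of 0.05, with 7 above 0. POFUT1, which adds the O-fucose that Fringe enzymes extend, was measured at 18.8, 15.0 and 18.1 FPKM in siGFPT2, against 17.1, 18.0 and 13.5 FPKM in siNC (log2 0.10, -0.27 to 0.46). EOGT, which puts N-acetylglucosamine from UDP-GlcNAc directly on EGF repeats, was measured at 3.65, 2.59 and 3.79 FPKM in siGFPT2, against 3.51, 3.88 and 2.59 FPKM in siNC (0.01, -0.50 to 0.52). LFNG, one of the Fringe enzymes that add N-acetylglucosamine to O-fucose, was measured at 1.26, 1.51 and 1.27 FPKM in siGFPT2, against 1.62, 1.34 and 1.63 FPKM in siNC (-0.17, -0.56 to 0.22). Values of POFUT1, EOGT and LFNG overlapped between the groups. The Fringe enzymes RFNG and MFNG averaged 5.25 and 1.1 FPKM in siGFPT2, against 5.82 and 1.2 FPKM in siNC. The smallest p-values of this list belonged to POGLUT2, with 0.27 (-0.10 to 0.63), and LFNG.

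The 8 proteases and gamma-secretase subunits had a median of 0.06 with 6 above 0, and their smallest p-values belonged to ADAM10, which makes the ligand-dependent cut (0.17, -0.50 to 0.84), and PSENEN, a gamma-secretase subunit (0.19, -0.59 to 0.98). The 10 genes of the nuclear complex had a median of 0.06 with 6 above 0. SNW1, a splicing and RBPJ cofactor, had 0.19 (-0.19 to 0.56), and CCNC, the cyclin that helps phosphorylate the Notch intracellular domain, had 0.22 (-0.35 to 0.78). The 15 corepressors had a median of 0.02 with 9 above 0, with 0.27 (-0.27 to 0.80) for L3MBTL3 and -0.14 (-0.45 to 0.17) for TLE2. The 16 ubiquitin ligases, endocytic and turnover genes had a median of 0.05 with 10 above 0. MIB2, a ligase that acts on ligands, was the 1 gene of the 70 whose groups did not overlap, at 2.91, 2.96 and 2.87 FPKM in siGFPT2, against 3.52, 3.18 and 3.47 FPKM in siNC. Of all features 1.36% had groups that did not overlap in this direction, so 1 of 70 is near the background. Its log2 fold change was -0.21 (-0.48 to 0.06, limma adjusted p = 0.9999). EPN1, an endocytic adaptor, had -0.13 (-0.41 to 0.15).

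Of the genes that Notch often induces in other tissues none was called by limma. Of 7 tested, 5 lay below 0, with a median of -0.01 and a range from -0.06 to 0.01. ERBB2 had -0.06 (-0.42 to 0.30) and SNAI2 had -0.03 (-0.34 to 0.29). The atypical ligand DNER had 0.01 (-0.33 to 0.36), and HEYL and HES6 had 0.07 and -0.09. RBPJ, named after its values were seen as the factor on which the receptors act, was at 5.39 to 7.23 FPKM in siGFPT2 and 5.34 to 7.36 FPKM in siNC.

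**Figure D4:**
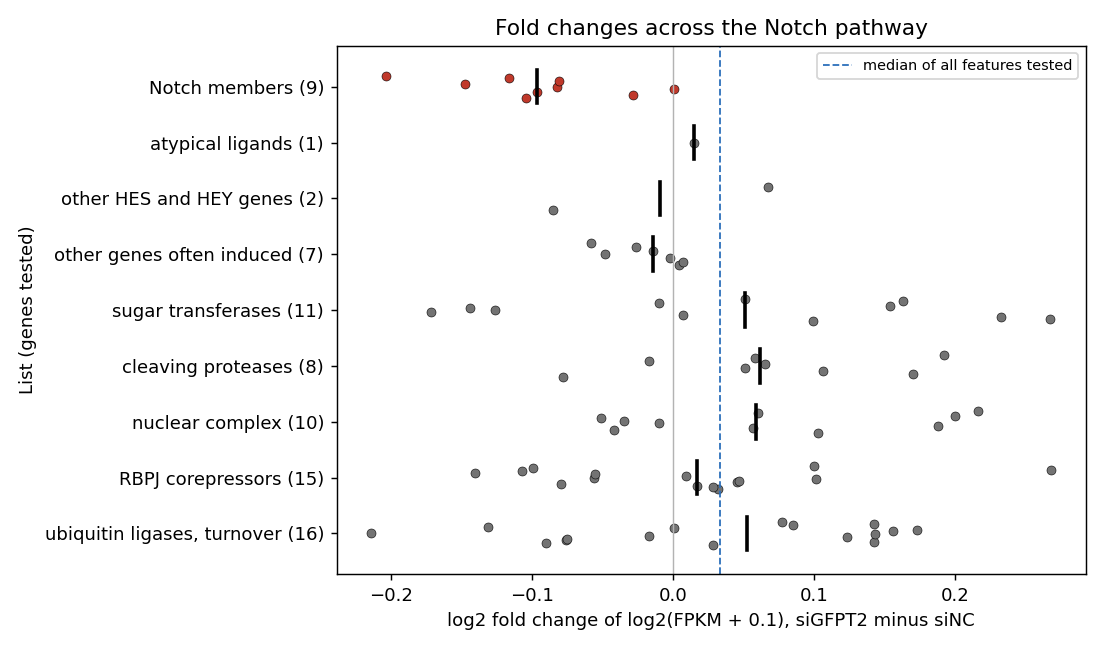
Log2 fold changes (siGFPT2 minus siNC) of each gene tested in the Notch lists, with 1 point for each gene, a black bar at the list median, the members in red in the top row and the median of all features tested as a dashed line. The members lie between -0.20 and 0.001, and the median of the other 70 genes is 0.02.

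Features with the closest pattern over the 6 libraries were sought for the most abundant receptor, ligand and target, among 6741 other features with a symbol and a mean of at least 5 FPKM. Likeness was the root mean square difference of log2(FPKM + 0.1), each gene centred on its own mean, and smaller is closer. LRP1, a large endocytic receptor (0.0363), CELSR1, a large cadherin of planar polarity (0.0387), and HCFC1, a transcriptional cofactor (0.0596), were closest to NOTCH3, with lengths of 20859, 16045 and 9011 bases. NOTCH1 was at 0.0754 from NOTCH3, JAG1 at 0.103 and NOTCH2 at 0.162, while JAG2 was at 0.453. MELTF (0.0239), EPHB4, a receptor of ephrins (0.0250), and PLPPR2 (0.0256) were closest to JAG2, and HEY1 was the closest member, at 0.0513. NUDT8 (0.0430), ZNHIT2 (0.0493) and ANTKMT (0.0681) were closest to HES4, with lengths of 1482, 1299 and 1912 bases, and HES1 was the closest member, at 0.164. All these distances rest on the same 6 libraries, whose length slopes differ, and are descriptions.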

How the data were processed

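Per the submitters' processing notes, the authors used HISAT2, featureCounts and DESeq2, with no versions given; build and annotation: not given in the sources used here. The deposited table holds FPKM values per gene and library, as the authors made them, and no further scaling was applied. Symbols came from a table of gene names and coordinates from GENCODE 29. Of 36981 features above 0, 53.9% were whole reads within 0.0001 reads at the GENCODE 29 exon length; for the others the smallest length that gave whole reads was taken, which can be too short, and 36980 were then whole. The recovered reads gave depth and an alternative fit.

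The main test was limma 3.58.1 in R 4.3.3, two-sided, with group as the only term and a trended prior variance, fitted to log2 values after adding 0.1 FPKM. Features averaging 1 FPKM or more were kept (12896), and p-values were adjusted over all of them with the Benjamini-Hochberg method (threshold 0.05). Intervals are 95% intervals of that fit. Low genes have understated fold changes on this scale. Single genes were also compared with exact permutation tests (scipy 1.17.1). The model was tested on simulated reads with a coefficient of variation of 0.1 between libraries, no length slope and no libraries standing apart. In that setting it recovered 65.1% of changes of 1.5-fold and 97% of changes of 2-fold. Recovery at the wider spread of these libraries was not tested.

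The members and lists were chosen with earlier results of these data known. Genes named are the 10 members, GFPT2, NOTCH4, DLL3, DLL4, the NOTCH2NL copies, POFUT1, EOGT and LFNG, the 2 genes with the smallest p of each list, the most abundant marker of each cell type (1 marker list is not reported here), and the 3 closest features of the most abundant receptor, ligand and target; others are listed with their list, given to describe a list or marked. Alternatives were 2 pseudocounts, 2 filters, 2 scalings, a replicate block, the length slope, limma-voom, and leaving out each library or the 2 that stood apart.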

Additional observations from a re-analysis of the deposited data

How the results depend on the processing

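Limma and limma-voom called 0 features in each of the 16 alternatives, and 0 of 142 member values under them passed (smallest adjusted p 0.695). Of these values 123 kept their direction and 19 did not. The log2 fold change of JAG1, 0.001 with all libraries, was -0.006 with a pseudocount of 1, -0.052 with median centring, -0.049 with quantile normalization and -0.13 without both siGFPT2 replicate 2 and siNC replicate 3. With 1 library left out, it ranged from -0.36 (without siNC replicate 3) to 0.24 (without siGFPT2 replicate 2) for JAG1, from -0.52 to 0.18 for NOTCH1, from -0.59 to 0.32 for NOTCH2, from -0.54 to 0.17 for NOTCH3, from -0.16 to 0.021 for JAG2 and from -0.30 to 0.10 for HES4, and it stayed below 0 for HES1 (-0.28 to -0.004), HEY1 (-0.17 to -0.04), NRARP (-0.28 to -0.14) and GFPT2 (-0.21 to -0.06). The lowest values of the receptors were those without siNC replicate 3. The cause of these turns was not tested.

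Features at an unadjusted p under 0.05 numbered 84 with all libraries, 754 with no filter, 16 with a minimum mean of 5 FPKM, 704 with the length slope, 751 without both libraries, 520 without siNC replicate 3, 161 without siNC replicate 2, 54 without siGFPT2 replicate 1 and 50 without siGFPT2 replicate 3. The replicate numbers did not pair the libraries: deviations from the group means correlated at 0.473, -0.719 and -0.57 for numbers 1, 2 and 3. With the replicate block limma called 0 features, with 63 at an unadjusted p under 0.05, and GFPT2 stayed at -0.13. A mean of at least 5 FPKM gave no value for HEY1, NRARP and DLL1, and DLL1 was fitted with no filter. Depth limits DLL1, at 4 to 10 fragments.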
